A study of Mus musculus with 36 samples.

Results

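Whole lungs of BALB/c mice exposed to 0.5 atm for 21 days, the last time point of a hypoxic pulmonary hypertension experiment before return to sea-level pressure, were set against control lungs of the same time. The comparison consists of the 4 arrays labelled hypoxia day 21, out of 36 arrays at 9 time points (days 1, 3, 7, 14 and 21 of hypoxia and, after it, days 22, 24, 28 and 35). Each array is a spotted 2-colour cDNA array, on which RNA of the exposed lungs and RNA of the control lungs carry different dyes and bind to the same spots. The labels describe 1 pool of 5 exposed mice and 1 pool of 5 control mice for the day, with no genotype, agent or age beyond strain and pressure, so a p-value here reflects the scatter of the arrays alone, and that scatter may be technical. All values below are log2 ratios read as hypoxic over control lung. This direction is likely and not settled: the protocol names the hypoxic cDNA and Cy5 before the control cDNA and Cy3, and records no dye swap. Between 14336 and 14963 of 15388 spots had a value on the 4 arrays, whose number limits the precision. Ratios carry no level, so the labelled tissue could not be checked against its markers.

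Low oxygen constricts the small arteries of the lung, and when it lasts for weeks the artery walls thicken: smooth muscle extends into vessels that normally lack it, fibroblasts lay down collagen and other matrix, and the right ventricle works against a higher pressure. Cells also sense oxygen through hypoxia-inducible factors, which raise genes of glucose use and vessel growth. Receptors of the transforming growth factor beta and bone morphogenetic protein families govern growth of the vessel wall, and mutation of the receptor gene Bmpr2 causes heritable pulmonary arterial hypertension in people.

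The replicate arrays of day 21 fell into pairs. Replicates 1 and 2 correlated at r = 0.67 and replicates 3 and 4 at r = 0.49 across spots, which are not independent replicates, whereas arrays taken across the pairs had r from -0.20 to 0.18. The mean of replicates 1 and 2 at day 21 correlated at 0.31 to 0.74 with the mean of replicates 1 and 2 of every other day, and at -0.28 to 0.11 with the mean of replicates 3 and 4 of those days. For replicates 3 and 4 the same ranges were 0.57 to 0.66 with their own numbers and -0.09 to 0.35 with the other numbers. What distinguishes the pairs is not given in the labels, and the part of any cause was not tested. The pairs were therefore treated as the unit of the test and are given apart throughout, and a feature counted as called when the mean of both pairs differed from 0 at a limma adjusted p (Benjamini-Hochberg) under 0.05.

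The day 21 lung differed from its control in a small group of features that the pairs shared. Of 12166 features (genes, or single spots where no single symbol was known), 56 were called (0.46%), 26 higher (0.214%) and 30 lower (0.247%). All 56 had 1 sign on every array that measured them, and 45 of the 54 that could be tested in each pair were called in each pair alone. Of all 11071 features testable in both pairs, 185 were called in both, 142 of them in 1 direction. A call needed a mean that was large against the spread between pairs, so agreement of the pairs is partly built into the choice of the 56. Their median change was 0.70 in size, with a range of 0.36 to 2.32, against a median of 0.09 for all features. A fit that takes out the constant difference between the pairs, with the pair as a replicate block, called 413 features (3.39%), 207 higher (1.7%) and 206 lower (1.69%), and these held all 56. Among the 56 were 42 genes with a single symbol, 22 higher and 20 lower.

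**Figure D1:**
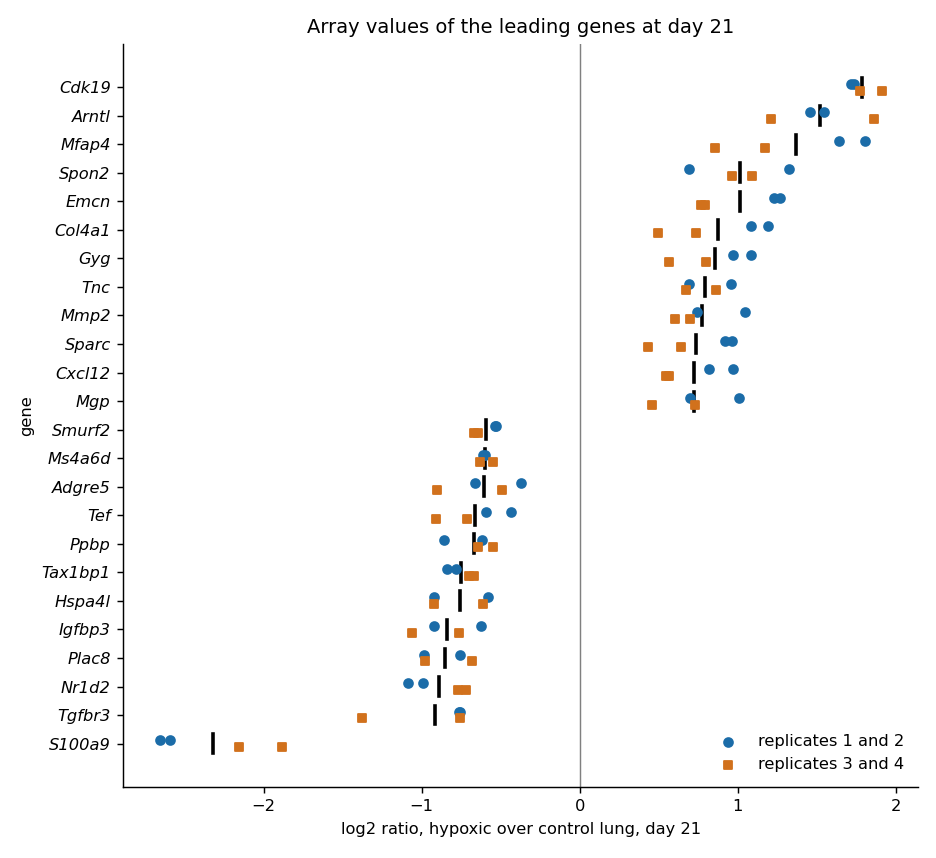
The log2 ratio of hypoxic over control lung is shown on the horizontal axis for the 12 named genes with the largest rise and the 12 with the largest fall at day 21. Circles are replicates 1 and 2, squares are replicates 3 and 4 and the black bar is the mean: all 4 arrays lie on 1 side of 0 for each gene, from Cdk19 at 1.79 to S100a9 at -2.32.

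Of the 26 features called higher, 5 belong to the list of elastic fibre and matricellular genes and 2 to that of the collagens. Mfap4, a microfibril protein that binds elastic fibres, read 1.64 and 1.80 on replicates 1 and 2 and 1.17 and 0.85 on replicates 3 and 4. The first pair lay above the second, and the mean of 1.37 ± 0.20 (SE) is a 2.58-fold rise (limma adjusted p = 0.00938). Its pair of spots stood at 1.34 and 1.39. Spon2, which encodes the secreted matrix protein spondin 2, read 1.32, 0.69, 0.96 and 1.09 on replicates 1 to 4 with no separation of the pairs (mean 1.02 ± 0.18, adjusted p = 0.0326). Its call was lost without replicate 1, where the mean was 0.86 (adjusted p = 0.0898). Tnc, the gene of tenascin C, a matrix protein of remodelling vessels, read 0.96, 0.69, 0.67 and 0.86, so that the pairs overlapped (mean 0.80 ± 0.11, adjusted p = 0.00938). Sparc, a collagen-binding matricellular protein, read 0.97, 0.92, 0.64 and 0.43, and its 3 spots ranged from 0.48 to 0.97. Mgp, matrix Gla protein, an inhibitor of calcification in vessel walls, read 1.01, 0.70, 0.46 and 0.73. In both genes every array was above 0. The means were 0.74 for Sparc (adjusted p = 0.0347) and 0.72 for Mgp (adjusted p = 0.00938). Sparc lost its call in 6 alternative fits, among them those without day 1 (adjusted p = 0.0598) and without day 24 (adjusted p = 0.0697).

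These 5 genes were the called members of the 12 measured in the list of elastic fibre and matricellular genes, and none of the 12 was called lower. The median of the list was 0.37, against 0.01 for all features tested. Fibronectin (Fn1, 0.32), Emilin1 (0.41) and Fbln2 (0.17) were above 0 without passing, and Tgfbi (-0.47) and Ltbp1 (-0.33), a binding protein of latent transforming growth factor beta, were below it without passing. With the replicate block Emilin1 also rose (adjusted p = 0.0467) and Tgfbi fell (adjusted p = 0.00968).

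The collagens split into basement membrane and fibrillar chains, and both kinds held a called gene. Col4a1, a basement membrane chain, read 1.08 and 1.19 on replicates 1 and 2 and 0.74 and 0.49 on replicates 3 and 4 (mean 0.88 ± 0.15, adjusted p = 0.0294). Col3a1, a fibrillar chain of vessel walls, read 0.49, 0.67, 0.73 and 0.58 (mean 0.62 ± 0.07, adjusted p = 0.00488). The pairs stood apart for Col4a1 and overlapped for Col3a1, and 1 of the 4 Col3a1 spots was at 0.07 while the highest was at 0.82. Col4a2, the partner chain of Col4a1, had the largest mean of the list, 0.91, but did not pass (adjusted p = 0.052), with 1.26 in the first pair and 0.57 in the second. Of 15 collagen and collagen-processing genes 2 rose and none fell, with a median of 0.27. With the replicate block 5 rose, the others being Col4a2 (adjusted p = 0.00047), Col1a1 (0.55, adjusted p = 0.0251) and Col1a2 (0.45, adjusted p = 0.0406). Col4a5, another basement membrane chain outside that list, rose by 0.45 ± 0.08 (adjusted p = 0.0401), with 0.50, 0.30, 0.49 and 0.52 on the 4 arrays. Proteoglycans gave no call among 11, with a median of 0.00. Decorin (Dcn), which organises collagen fibrils, was at -0.22, -0.42, -0.82 and -0.77 (adjusted p = 0.27).

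Mmp2, the gelatinase that cuts basement membrane collagen, read 1.04, 0.74, 0.60 and 0.70, above 0.60 on all 4 arrays (mean 0.77 ± 0.11, adjusted p = 0.01). Among 28 proteases and inhibitors it was the only one called higher, and Ctla2b, a cysteine protease inhibitor, the only one called lower. Ctla2b read -0.22, -0.59, -0.76 and -0.38 (mean -0.49, adjusted p = 0.0436), and its adjusted p was 0.131 without replicate 2, 0.0776 without replicate 3 and 0.0674 with the day and pair as a random block.

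Cdk19 had the largest positive ratio of the named genes. This kinase of the Mediator complex, which links transcription factors to RNA polymerase, read 1.74, 1.72, 1.92 and 1.78. The arrays spanned a narrow range in which the second pair lay above the first, and the mean of 1.79 ± 0.10 is a 3.45-fold rise (adjusted p = 4.72e-06). Emcn, endomucin, a sialomucin on the surface of endothelium, read 1.27 and 1.23 in the first pair and 0.77 and 0.80 in the second (mean 1.01 ± 0.18, adjusted p = 0.0334). It was the only called gene of 9 endothelial markers, whose median was 0.03. Cd34 (0.59) did not pass, and Cd93, a lectin of endothelium and myeloid cells, stood at -1.02 with adjusted p = 0.0708. With the replicate block Emcn and Cd34 rose and Cd93 and Ednrb, the endothelin B receptor gene (-0.44), fell. RNA of whole lung mixes many cell types, so fewer cells of a type and less RNA per cell cannot be told apart in these values.

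The other named genes called higher included Gyg, the primer of glycogen synthesis, at 0.97, 1.09, 0.80 and 0.57 (mean 0.86, adjusted p = 0.0188), with the first pair above the second. Cxcl12, a chemokine that draws CXCR4-bearing cells, read 0.97 and 0.82 against 0.56 and 0.54 (mean 0.72, adjusted p = 0.0372), again with the first pair higher. Mest, an imprinted gene of mesoderm, rose by 0.60 and Sgk1, a kinase induced by glucocorticoids and serum, by 0.58. Alpl, the tissue-nonspecific alkaline phosphatase, rose by 0.53 and was not called in replicates 1 and 2 alone (adjusted p = 0.146). Bag3, a co-chaperone, rose by 0.49, and without replicate 4 it did not pass (0.44, adjusted p = 0.0757). Fras1 (0.56), Anxa3 (0.43) and the dystroglycan gene Dag1 (0.42) completed this group. Fras1 and Anxa3 had no value on replicate 2.

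S100a9 had the largest change of the whole comparison. This gene of neutrophils and monocytes encodes a subunit of calprotectin, and it read -2.59 and -2.66 on replicates 1 and 2 and -2.15 and -1.88 on replicates 3 and 4. All 4 arrays were far below 0 and the first pair lay below the second. The mean of -2.32 ± 0.15 is 0.200 of the control value (adjusted p = 6.91e-06). The other 3 measured neutrophil markers did not follow it: Ltf (-0.08), Csf3r (-0.07) and Lcn2 (-0.06) had means within 0.1 of 0 and adjusted p of 0.98 or more. Of 11 macrophage and monocyte markers none was called (median -0.14). Cybb, the NADPH oxidase subunit of phagocytes, was at -0.56 (adjusted p = 0.0621) and the Fc receptor gene Fcgr3 at -0.40 (adjusted p = 0.071), and with the replicate block Cybb, Fcgr3 and Fcer1g (-0.38) fell.

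Plac8 was also called lower and read -0.76, -0.99, -0.98 and -0.68 (mean -0.85 ± 0.10, adjusted p = 0.00503). Ms4a6d, a membrane protein of macrophages, read -0.61, -0.60, -0.55 and -0.63, the narrowest spread of the called genes with names (mean -0.60 ± 0.08, adjusted p = 0.00558). The pairs overlapped in both genes. Ppbp, the platelet chemokine precursor, read -0.86, -0.62, -0.55 and -0.65 (mean -0.67, adjusted p = 0.0156). Lcp2, the adaptor SLP-76 of T cells, platelets and myeloid cells, fell by 0.57 (adjusted p = 0.0156). Adgre5, the leukocyte receptor CD97, had a mean of -0.61 (adjusted p = 0.0413) and was the least steady of these. It read -0.66, -0.37, -0.49 and -0.90, its spots stood at -0.96 and -0.25, and its adjusted p was 0.0961 without replicate 1 and 0.0954 without replicate 4. With the day and pair as a random block it was 0.0758.

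Genes of transforming growth factor beta signalling were called in the lower direction alone: of 20 measured members of the combined list with bone morphogenetic protein genes, 2 fell and none rose, with a list median of 0.00. Tgfbr3, the co-receptor betaglycan, read -0.77 and -0.76 on replicates 1 and 2, -0.76 on replicate 3 and -1.38 on replicate 4. That array lay far below the other 3, and the mean was -0.92 ± 0.14 (adjusted p = 0.0132). It did not pass with the day and pair as a random block (adjusted p = 0.0972). Smurf2, a ubiquitin ligase that marks Smad proteins and receptors of the pathway for destruction, read -0.54, -0.53, -0.64 and -0.67 (mean -0.59 ± 0.08, adjusted p = 0.00938). Its second pair lay slightly below the first. The receptor gene Bmpr2 did not pass at day 21, with -0.74 in the first pair, -0.33 in the second and a mean of -0.54 (adjusted p = 0.437). With the replicate block it fell (adjusted p = 0.00687), while Pmepa1 (0.76), a target that dampens the pathway, and the ligand gene Tgfb2 (0.46) rose.

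Among 12 vasoactive and pulmonary hypertension genes Rgs2, which shuts off signalling of constrictor receptors through Gq, was the 1 called gene. It read -0.54, -0.62, -0.70 and -0.48, with overlapping pairs (mean -0.59 ± 0.08, adjusted p = 0.00938), and its spots stood at -0.59 and -0.58. The median of the list was -0.17, and 8 of its members were below 0. The thrombin receptor gene F2r (-0.59, adjusted p = 0.0609), the natriuretic peptide clearance receptor gene Npr3 (-0.45, adjusted p = 0.0762) and Ednrb (-0.44, adjusted p = 0.071) did not pass and fell with the replicate block.

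Igfbp3, a carrier of insulin-like growth factors that is also listed as a target of hypoxia-inducible factor, read -0.62, -0.92, -0.77 and -1.06 with the pairs overlapping (mean -0.84 ± 0.10, adjusted p = 0.00438). Of 30 measured target genes of hypoxia-inducible factor, Cxcl12 was called higher and Igfbp3 lower, and the list median was 0.03. None of 15 glycolysis genes was called (median 0.03). The neuronal-type glucose transporter gene Slc2a3 was at -0.52, -0.65, -0.88 and -0.85 without passing (adjusted p = 0.095), and with the replicate block it fell while the hexokinase gene Hk1 (0.35) rose. Pgk1 (-0.15), Ldha (0.08) and Slc2a1 (0.03) did not pass in either fit.

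The circadian clock list held called genes in both directions. The clock is a feedback loop in which BMAL1, the product of Arntl, pairs with CLOCK or NPAS2 and binds E-box sequences (CACGTG) of its target genes, while the nuclear receptors NR1D1 and NR1D2 bind sites holding AGGTCA and repress Arntl. Of 12 measured members 1 rose and 2 fell, with a median of -0.07. Arntl read 1.46 and 1.54 in the first pair and 1.21 and 1.87 in the second, which enclosed the first (mean 1.52 ± 0.25, a 2.87-fold rise, adjusted p = 0.021). Nr1d2 read -1.09, -0.99, -0.77 and -0.72, with the first pair lower (mean -0.89 ± 0.14, adjusted p = 0.0156). Tef, a transcription factor of clock output, read -0.59, -0.44, -0.71 and -0.91, with the second pair lower (mean -0.66 ± 0.10, adjusted p = 0.0132). Per3 (-0.62) and Usp2 (-0.51) did not pass and fell with the replicate block, with adjusted p of 0.0161 and 0.0195. Npas2 was at 0.32 and Clock at 0.20, neither passing. The labels give no time of day at which lungs were taken.

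The promoter windows of the called clock genes, and of Per3, which did not pass, were searched on both strands for the pair of motifs named above. The motifs do not overlap each other, and the search was made because the called genes moved in opposite directions. The windows are RefSeq promoters of GRCm38.p6, each 300 bases long and reaching past the gene's start, and are shown 5′ to 3′ on the gene's strand with the motif in capitals. Over all 32851 such windows, 7.15% held CACGTG and 16.3% held AGGTCA. The stretch from Nr1d2 lies at chr14:18239156-18239205 on the minus strand, with its motif starting 77 bases before the start of the gene. Those from Tef lie at chr15:81802524-81802573 and chr15:81811254-81811303 on the plus strand, with motifs 127 and 138 bases before its first and second start.
Nr1d2: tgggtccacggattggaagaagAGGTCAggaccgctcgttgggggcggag
Tef, first start: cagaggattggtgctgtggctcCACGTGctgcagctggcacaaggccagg
Tef, second start: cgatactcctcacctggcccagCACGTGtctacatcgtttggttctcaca
The windows of Arntl held neither motif before a start and AGGTCA 32 bases after its second start, and the window of Per3 held neither. These are matches of letters and not sites shown to be bound.

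Of the remaining called genes, Tax1bp1, an autophagy receptor, read -0.84, -0.78, -0.70 and -0.67 (mean -0.75 ± 0.11, adjusted p = 0.0132). Hspa4l, a relative of the heat shock protein HSP110, read -0.92, -0.58, -0.61 and -0.92 (mean -0.76, adjusted p = 0.0476). It did not pass without replicate 1 (-0.67, adjusted p = 0.0953) or without replicate 4 (-0.68, adjusted p = 0.093). The carbonic anhydrase relative Car8 (-0.54), Pknox2 (-0.47), the phospholipid enzyme gene Cept1 (-0.46), the ephrin gene Efna1 (-0.46) and Psip1 (-0.36) also fell. Without replicate 4 Cept1 was at -0.43 with adjusted p = 0.0585. The symbol AU040972 (0.36, called higher), counted among the 42, is a clone name. The other 14 called features had no single symbol.

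**Figure D2:**
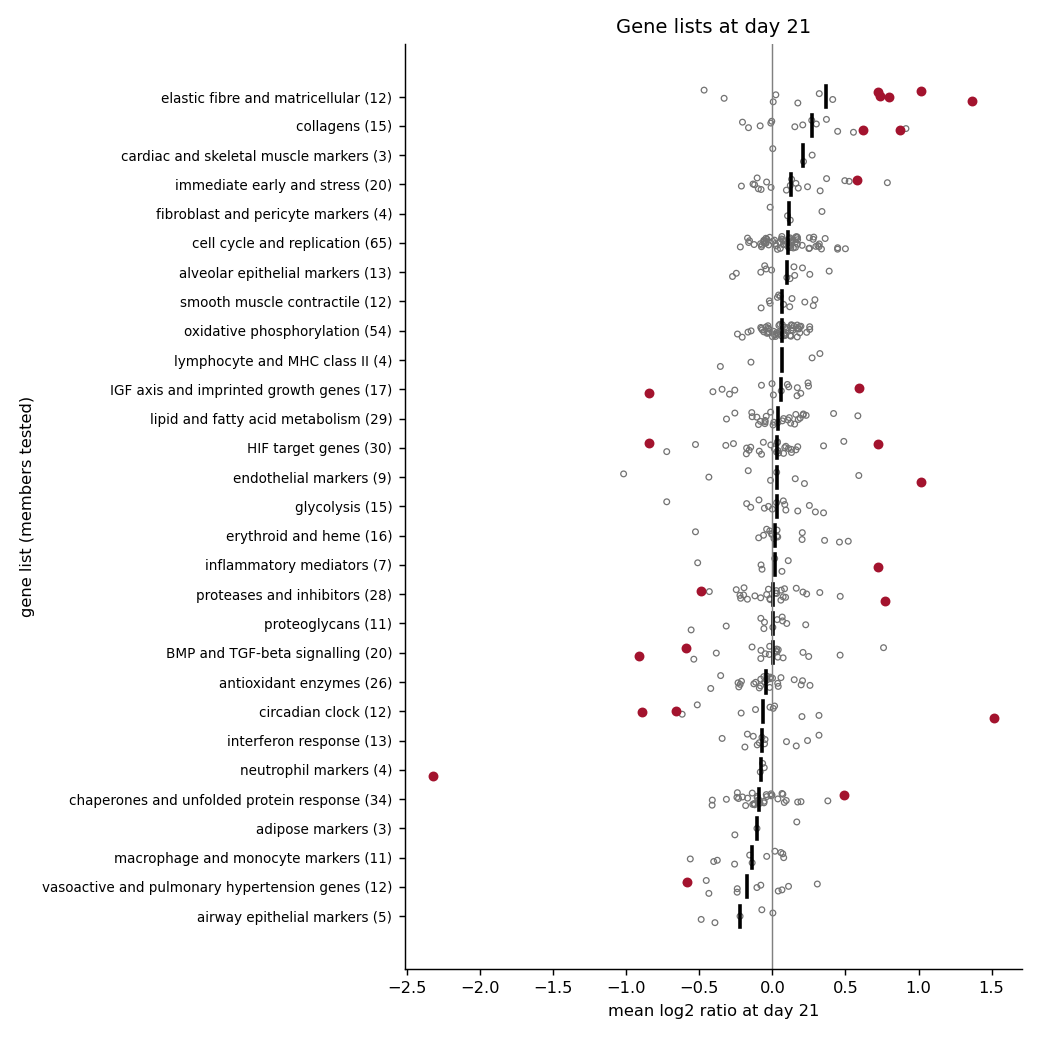
Mean log2 ratios at day 21 of the measured members of 29 gene lists. Each circle is a gene, filled where it was called, and the black bar is the list median: the elastic fibre and matricellular list (0.37) and the collagens (0.27) have the highest medians, and the airway epithelial list (-0.22) the lowest.

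Other lists held few or no called genes at day 21. As 0.46% of all features were called, a list with no call is near that share. Smooth muscle contractile genes gave no call among 12 in either fit, with a median of 0.06 and a range of -0.08 to 0.29. Caldesmon (Cald1) read 0.58, 0.22, 0.04 and 0.32 and the calponin Cnn2 read 0.38, 0.38, 0.17 and -0.04. Cell cycle and replication genes gave no call among 65, although 47 were above 0 (median 0.11), as were 52.8% of all features. With the replicate block 8 of the 65 rose, against 1.7% of all features. Among them were the topoisomerase gene Top2a (0.45, its spots at 0.14 and 0.75), Cdk1 (0.45) and Ccnb2 (0.50). None of 54 oxidative phosphorylation genes, 26 antioxidant genes, 29 lipid genes or 13 interferon response genes was called. Of 20 immediate early and stress genes Sgk1 was called, and of 34 chaperones Bag3, both higher. In the block fit 6 of the immediate early genes rose and none fell, and 2 chaperones rose and 3 fell. Of all features 1.7% rose and 1.69% fell in that fit. Alveolar (13 genes) and airway (5 genes) epithelial markers, 4 lymphocyte and class II genes, 4 fibroblast and pericyte markers, 3 cardiac or skeletal muscle genes and 3 adipose genes gave no call.

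The 3 measured globin genes had means above 0 without passing. Hbb-b1, an adult beta globin, read 0.81, 0.36, 0.29 and 0.61 (mean 0.52, adjusted p = 0.0859), and Hba-x (0.46) and Hbb-y (0.36), the embryonic globins, lay near it. Globin sequences are close to each other, so cDNA spots may share signal and these 3 genes are uncertain as separate readings. Of 16 erythroid and heme genes none was called, with 9 above 0, 7 below and a median of 0.02. Tfrc, the transferrin receptor gene, was at -0.61, -0.62, -0.25 and -0.63 (adjusted p = 0.0863). With the replicate block Hbb-b1 rose and Tfrc fell.

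Taken apart, the pairs each gave many more calls than they shared. These fits, and the fit of the difference between the pairs, took each array as a value. Their p-values reflect only the scatter between arrays of a pair, and such arrays are not independent replicates. Replicates 1 and 2 alone called 812 of 11396 features (7.13%), 407 higher (3.57%) and 405 lower (3.55%), and replicates 3 and 4 alone called 1430 of 11841 (12.1%), 796 higher (6.72%) and 634 lower (5.35%). Of 11071 features testable in both, 185 were called in both, which is 23.4% of the 792 calls of the first pair there and 13.7% of the 1349 of the second. Of those 185, 142 had 1 direction and 43 had opposite directions. Across all features the pair means had the same sign in 47.3% and correlated at r = -0.03. The difference between the pairs itself passed for 934 of 12166 features (7.68%), 376 higher (3.09%) and 558 lower (4.59%) in replicates 1 and 2.

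Named genes with opposite calls in the pairs show the size of this difference. Ddx1, an RNA helicase, read -0.85 and -0.58 in the first pair and 0.62 and 0.69 in the second. Prex2, an activator of Rac, read -1.01 and -0.71 against 0.51 and 0.36. Eif3k, a subunit of a translation initiation factor, read 0.54 and 0.22 against -0.46 and -0.34, and Dad1, a subunit of the oligosaccharyltransferase, 0.57 and 0.20 against -0.61 and -0.16. The arrays of these genes fell into groups on either side of 0, and their means over 4 arrays were -0.03, -0.21, -0.01 and 0.00. Fkbp15, Pura and Prl7d1 were also lower in the first pair and higher in the second, and Pnkd and Trmt112 the reverse.

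**Figure D3:**
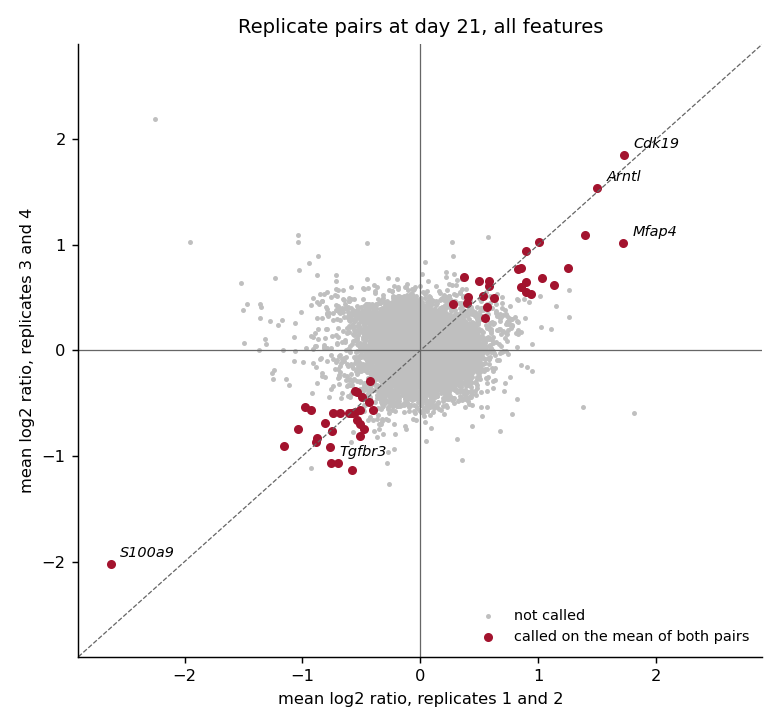
Mean log2 ratio of replicates 1 and 2 (horizontal) against that of replicates 3 and 4 (vertical) at day 21 for all features, with the line of equality dashed. The grey cloud of features that were not called shows no common slope (r = -0.03 over all features), and the 56 called features (red) lie along the line on both sides of 0.

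The question of what persisted to the end of exposure was put by setting day 21 beside the mean of days 1, 3, 7 and 14, each of which had its own control pool. That earlier mean differed from 0 for 4736 of 12158 features (39%), 2682 higher (22.1%) and 2054 lower (16.9%). With each array centred on its median the split was 2311 higher and 2307 lower. At day 21, 4420 of these (93.3%) had the sign of the earlier mean, against 75.6% of all features. Their median size in the earlier direction was 0.27 over days 1 to 14 and 0.14 at day 21. It was 0.23, 0.26, 0.33 and 0.27 at days 1, 3, 7 and 14, so day 21 was the lowest of the 5 hypoxia days. After exposure it was 0.06, 0.12, 0.24 and 0.06 at days 22, 24, 28 and 35. Features and directions were chosen from days 1 to 14, so a lower median on any other day is partly built in. Of 425 called features with an earlier mean of at least 0.5 in size, 424 kept their sign and 407 (95.8%) were smaller at day 21. The 104 higher ones went from a median of 0.74 to 0.50 and the 321 lower ones from -0.65 to -0.35. Because they were chosen for a large earlier mean, a smaller later value is partly built into that choice.

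Sign sharing between days was mostly sharing within a pair. The earlier mean and day 21 correlated at r = 0.80 across features in replicates 1 and 2 and at 0.74 in replicates 3 and 4. Across pairs, the earlier mean of replicates 1 and 2 correlated with day 21 of replicates 3 and 4 at 0.14, and the earlier mean of replicates 3 and 4 with day 21 of replicates 1 and 2 at 0.08. Among features called over the earlier days in replicates 1 and 2 with a mean of at least 0.5 in size, 65.7% of 764 had the same sign at day 21 in replicates 3 and 4, against 54.2% of all features. In the reverse direction the share was 54.6% of 824, against 49.3%. The count of 93.3% above therefore holds what recurs in each pair as well as what the pairs share.

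**Figure D4:**
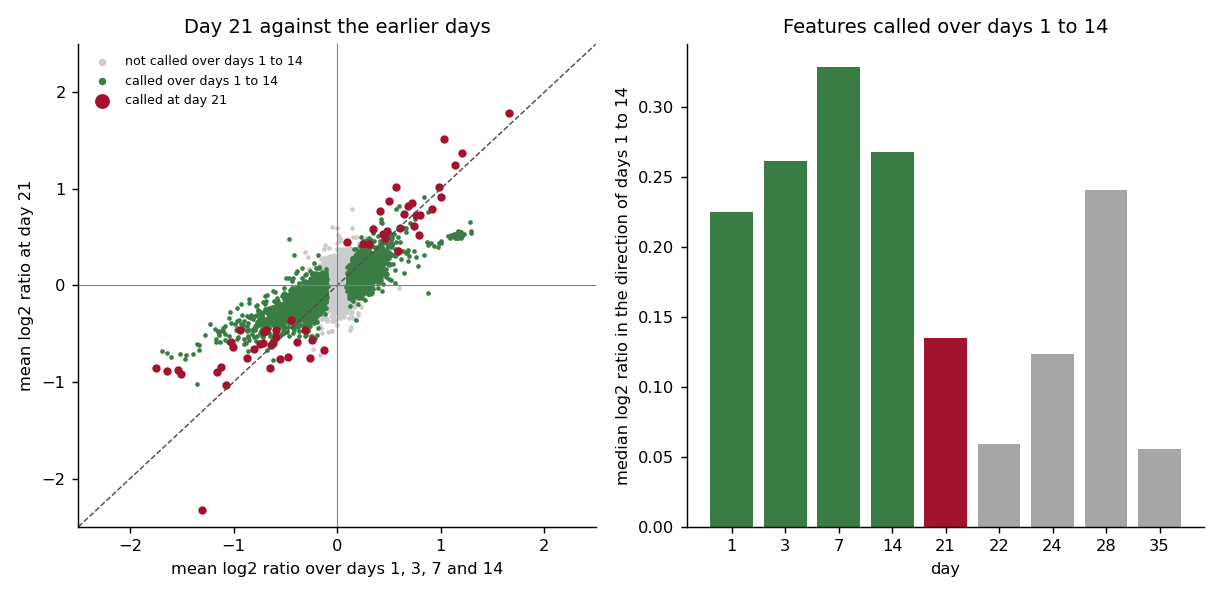
Left, the mean log2 ratio over days 1, 3, 7 and 14 (horizontal) against that at day 21 (vertical) for each feature, with equality dashed. Right, the median log2 ratio by day of the 4736 features called over days 1 to 14, each taken in the direction of its earlier mean. It was 0.14 on day 21 and 0.24 on day 28, and lower medians outside days 1 to 14 are partly built into the choice.

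Of the 56 features called at day 21, 54 were also called over days 1 to 14 in the same direction and none in the opposite direction. The 2 exceptions were Col4a5, whose earlier mean was 0.09, and Ppbp, at -0.13. Of all features, 39% were called over days 1 to 14 in either direction. Both calls use the same estimate of spread for a feature, so their overlap is partly built in. All 5 hypoxia days had 1 sign for 50 of the 56 (89.3%), 24 higher and 26 lower, against 44.7% of all features. Since the 56 were chosen for their values at day 21, a shared sign on that day is partly built in. Cdk19 held its level throughout, at 1.58, 1.50, 1.95 and 1.60 on days 1, 3, 7 and 14 and 1.79 on day 21. Tnc was as even, at 1.04, 0.86, 0.86, 0.91 and 0.80. Mfap4 began at 0.17 on day 1, stood at 1.67 on day 3 and at 1.37 on day 21.

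Arntl was at 0.83, 0.37, 1.36 and 1.55 before it reached 1.52 at day 21, so that its last 3 hypoxia days were its highest. Nr1d2 stood at -0.84, -1.04, -1.70 and -1.06 and then -0.89, and Tef at -0.84, -0.51, -0.84 and -1.02 and then -0.66. Tgfbr3 was between -1.40 and -1.68 on the 4 earlier days and at -0.92 on day 21. Igfbp3 stood at -1.32, -1.35 and -1.50 on days 1, 3 and 7, at -0.33 on day 14 and at -0.84 on day 21. S100a9 changed sign among the earlier days, at 0.31, -2.63, -0.19 and -2.71, before its -2.32. After return to sea-level pressure it stood at 0.19, -0.66, -2.97 and -3.25 on days 22, 24, 28 and 35. Its low values were therefore not confined to hypoxia.

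**Figure D5:**
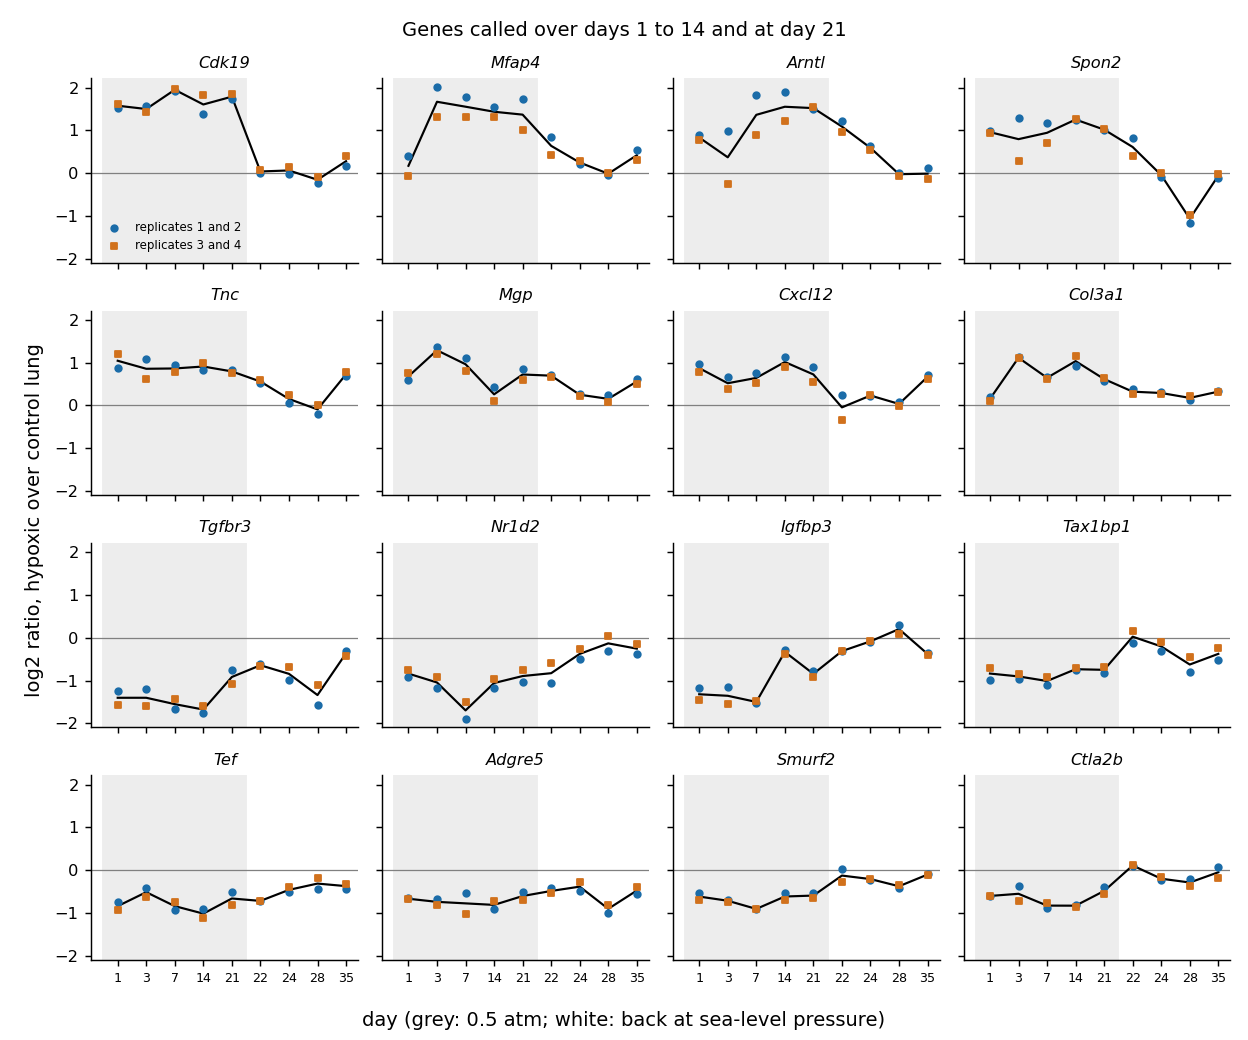
Log2 ratio by day for the 8 higher and 8 lower named genes with the largest earlier means among those called over days 1 to 14 and at day 21 with 1 sign on all 5 hypoxia days. Lines join the day means, circles are replicates 1 and 2, squares are replicates 3 and 4, and grey marks the days at 0.5 atm: Cdk19 goes from 1.79 at day 21 to 0.04 at day 22.

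The 50 features with 1 sign over the 5 hypoxia days were followed past the end of exposure. Their median in the hypoxia direction was 0.69 at day 21 and 0.24, 0.25, 0.30 and 0.31 at days 22, 24, 28 and 35. These features were chosen for a called value at day 21, so a smaller median on the later days is partly built in. Their sign was kept in 42, 45, 37 and 46 of the 50, against 65.3%, 72.1%, 68.5% and 61.0% of all features that had the sign of day 21 on those days. On days 22, 24, 28 and 35, 6, 6, 24 and 7 of them were called in the same direction, against 0.453%, 0.132%, 14.6% and 0.847% of all features. The difference between day 21 and these days was not tested. Cdk19 stood at 0.04 on day 22, whereas Arntl was at 1.09, 0.59, -0.02 and -0.01 on days 22 to 35. Nr1d2 (-0.83, adjusted p = 0.0179), Tef (-0.72, adjusted p = 0.00495) and Mgp (0.70, adjusted p = 0.00793) were still called at day 22. Tnc (0.73), Emcn (1.16, adjusted p = 0.00587) and Cxcl12 (0.67, adjusted p = 0.031) were called at day 35.

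Whether single features were smaller or larger at day 21 than before was tested directly as day 21 minus the mean of days 1, 3, 7 and 14. No feature of 12158 passed (0%) in limma, the lowest adjusted p being 0.204. At an unadjusted p under 0.05 there were 650 (5.35%), 371 higher and 279 lower, a share near that expected by chance. Treating each array as a value called 172. The fit with the replicate block called 83 (0.683%), 45 higher (0.37%) and 38 lower (0.313%), and 75 of them were nearer to 0 at day 21. Among the 83, 13 changed sign between the earlier mean and day 21, and 5 of these ended at least as far from 0 on the other side. In that fit Hbb-b1 went from 1.10 to 0.52 (adjusted p = 0.012) and Ltf, the lactoferrin gene of neutrophil granules, from 0.87 to -0.08 (adjusted p = 0.015). Prkaa1, a catalytic subunit of the energy sensor AMPK, went from -0.85 to -0.18 (adjusted p = 0.0203). Errfi1, a feedback inhibitor of the EGF receptor, crossed 0, from -0.19 to 0.31 (adjusted p = 0.0113), and Arrdc3, an arrestin family member, from -0.23 to 0.23 (adjusted p = 0.0177). S100a9 (-1.30 to -2.32, adjusted p = 0.0059) and Ppbp (-0.13 to -0.67, adjusted p = 0.0231) were farther from 0 at day 21 than their earlier means, with the same sign. Their single earlier days varied in sign. S100a9 was at 0.31, -2.63, -0.19 and -2.71 on days 1, 3, 7 and 14, so days 3 and 14 were farther from 0 than day 21. Ppbp was at -0.07, -0.38, 0.15 and -0.20.

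Medians of gene lists over the earlier days were set beside those at day 21. Of the 12 smooth muscle genes 9 were called higher over days 1 to 14, against 22.1% of all features, with a list median of 0.29. At day 21 none was called and the median was 0.06. Only 0.214% of all features were called higher at day 21, so no call among 12 is near that share. Flna, filamin A, was at 0.52 over the earlier days and 0.05 at day 21, and Tpm2, a tropomyosin, at 0.33 and 0.03. For the collagens the corresponding medians were 0.44 and 0.27, and for the elastic fibre and matricellular genes 0.43 and 0.37. No gene passed in the difference by the fit on pair means, nor did Flna or Tpm2 with the replicate block. These medians stand beside the 0.27 and 0.14 of all features called over the earlier days. The earlier mean rests on 4 days and the day 21 mean on 1, so their counts of calls are not on 1 footing.

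The last step of exposure was taken as day 21 minus day 14, where 37 of 12164 features passed (0.304%), 34 higher (0.28%) and 3 lower (0.0247%). All 37 were called at day 14 and all were smaller in size at day 21. Metallothioneins, which bind zinc and copper and respond to glucocorticoids and metals, led the group. Mt2 stood at -1.92 in replicates 1 and 2 and -2.40 in replicates 3 and 4 of day 14, and read 0.78, 0.22, 0.24 and 0.73 on the arrays of day 21, a difference of 2.65 ± 0.17 (adjusted p = 1.98e-05). Mt1 stood at -1.91 on day 14 and read 0.98, 0.54, 0.01 and 0.57 on day 21, a difference of 2.44 ± 0.36 (adjusted p = 0.00931). The arrays of both genes at day 21 lay above 0 and the pair means of day 14 far below it. On days 1, 3 and 7 Mt2 had been at 1.04, 0.55 and 0.68.

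Fkbp5, a co-chaperone of the glucocorticoid receptor that glucocorticoids induce, went from -1.60 at day 14 to 0.13 (difference 1.73 ± 0.21, adjusted p = 0.00259). Glul, glutamine synthetase, went from -0.72 to 0.30 (1.02 ± 0.16, adjusted p = 0.0151) and the zinc finger gene Zfp984 from -1.21 to -0.13 (1.08 ± 0.13, adjusted p = 0.00308). In the other direction Ighm, the heavy chain gene of IgM, went from 0.83 to -0.36 (-1.18 ± 0.16, adjusted p = 0.00492), the platelet lipoxygenase gene Alox12 from 0.57 to -0.09 (-0.66 ± 0.10) and the HSP90-binding protein gene Chordc1 from 0.48 to -0.01 (-0.50 ± 0.09). Chordc1 did not pass without replicate 2 (-0.47, adjusted p = 0.0578), and its 3 spots at day 21 differed in sign. Alox12 did not pass with the day and pair as a random block (adjusted p = 0.204). At day 21 itself none of these 8 genes differed from control (lowest adjusted p 0.126, for Mt2), although Mt2 and Mt1 rose with the replicate block (adjusted p = 0.00756 and 0.0136). That block called 132 features in this step (1.09%), 94 higher (0.773%) and 38 lower (0.312%).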

How the data were processed

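The authors deposited log2 ratios, read here as hypoxic over control lung: per the labels' protocols, slides were read on a GenePix 4000A scanner with GenePix Pro 4.0, background was corrected, flagged spots were removed and ratios were normalised by lowess. These values were used unchanged. Channel intensities were not used here. Platform annotation gave 1 symbol for 9598 of 15388 spots, several for 514 and none for 5276; of the named spots 9510 matched RefSeq by Entrez identifier with unchanged symbols. Each gene's spots were averaged (6971 genes) and other spots kept single.

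Replicates 1 and 2, and 3 and 4, of each day were averaged, and limma 3.58.1 in R 4.3.3 (lmFit, eBayes, two-sided) fitted a mean for each of 9 days on the resulting values, so that the days shared 1 estimate of spread, with Benjamini-Hochberg adjustment over all features with a value on at least 3 day 21 arrays and 27 of 36 arrays. Pairs alone were fitted with each array as a value. The replicate block was used because the numbers pair the arrays: the difference between the pairs correlated over 0.1 in 36 of 36 comparisons of days (0.30 to 0.79). This comes from the data, as no label says what the numbers mark. No 2 arrays shared more than 6 equal spot values, so none was a duplicate. The fits were tested on simulated data with 100 changes of 0.5 and 100 of 1 in log2 at day 21. The fit on pair means recovered 19 and 83 of them, and the fit with the replicate block 58 and 97. Changes of 0.5 were thus mostly missed by the fit on pair means, and the lack of a call does not show the lack of such a change.

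Named genes have a single non-placeholder symbol and are, in each direction, up to 12 with the largest called change at day 21, up to 10 persisting from days 1 to 14, up to 6 smaller and 6 larger at day 21, up to 5 differing from day 14, up to 5 opposite between the pairs, and leading members of 29 lists. Where fewer passed, the lowest p filled the set, and list members beyond the rule, the remaining called genes and genes called by the block were named after their values were seen. The comparisons, lists and members were chosen with earlier results of these data known. Alternatives changed the unit, block, centring, scaling, limits on missing values, averaging of spots, arrays and days.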

Additional observations from a re-analysis of the deposited data

Results flagged for a closer look

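Replicate 4 read -1.38 for Tgfbr3 at day 21, far from the other 3 arrays. It was the 1 gene of 31 tested for a distant array that had one, and about 1 gene in 20 would by chance.

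Of the named genes, 11 differed between days 14 and 21 by the test of the difference. Mt2 (2.65), Mt1 (2.44), Fkbp5 (1.73), Zfp984 (1.08), Glul (1.02), Ms4a6d (0.99), Errfi1 (0.72) and Arrdc3 (0.67) were higher at day 21 than at day 14. Ighm (-1.18), Alox12 (-0.66) and Chordc1 (-0.50) were lower.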

How the results depend on the processing

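No result reversed under any alternative. The 56 calls at day 21 became 561 with each array as a value, 144 with the day and pair as a random block (50 shared with the 56), 413 with the replicate block, 983 with the replicate block on single arrays, 8 from the pair values of day 21 alone and 153 after scaling to a common spread. Leaving out an array of day 21 gave 43 to 87 calls, the latter without replicate 3, and leaving out day 1, 24 or 35 gave 37, 32 and 34. Day 21 minus the earlier mean, with 0 calls, gave 172, 23, 83 and 429 under the first 4 of these settings and 1 without day 1, day 3 or day 14. Day 21 minus day 14, with 37, gave 207 with each array as a value, 132 with the replicate block, 472 with that block on single arrays, 9 at a common spread and 56 with each spot on its own. A common spread gave 2081 calls in replicates 1 and 2 against 812, and 2413 between the pairs against 934. The cause of these shifts was not tested. Of 31 named day 21 genes, Arntl, Cdk19, Mfap4 and S100a9 stayed called under every alternative run for single genes, and Ctla2b, Adgre5 and Hspa4l lost the call in 12, 11 and 10. Bag3 lost it in 7, Sparc in 6, Cept1, Cxcl12 and Spon2 in 5 each and Emcn in 4. From the pair values of day 21 alone, without the spread shared across days, 26 of the 31 lost it. The replicate block ended no call of a named day 21 gene. Signal over background was not used here.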
